A study of Mus musculus with 8 samples.

Results

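Chemokine ligands are small secreted or membrane-bound proteins that draw leukocytes along a gradient. They act through G protein-coupled receptors on the migrating cell, and atypical receptors that do not signal through G proteins take some of them up and remove them. In tumors, CC ligands such as Ccl2 are known for attracting monocytes, CXC ligands with the motif of Cxcl1 for attracting neutrophils, and Cxcl16 and Cx3cl1 are made as membrane proteins that proteases can release. Which of 10 such ligands were transcribed in N2A tumors, and whether their transcripts differed with SR59230A treatment, was examined here. The 10 genes were Ccl2, Ccl3, Ccl4, Ccl5, Ccl7, Ccl8, Cxcl1, Cxcl12, Cxcl16 and Cx3cl1, out of 35458 genes with matched reads. They were taken as a fixed list of names, and reads and TPM (transcript abundance per length, scaled to the same total in each library) were summed over the Ensembl transcripts of each gene. Of the 10, 7 had enough reads for the test between treatments, among 15207 genes tested.

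The labels describe total RNA from 8 tumors, 1 library per tumor, whereas the paper describes sequencing in duplicate; n and p below follow the labels, and no other source used here says how the 8 libraries relate to those duplicates. Neuro-2a (N2A) cells, an established neuroblastoma line that arose in an A strain mouse, were injected under the skin of female A/J mice bought at 4 weeks of age, 1000000 cells per mouse. Once a tumor could be felt, 4 mice (tumors 1 to 4) received SR59230A, a small-molecule compound, intraperitoneally at 10 mg/kg and 2 times a day, and 4 mice (tumors 0 to 3, also labelled mock) received its vehicle, physiological solution, on the same schedule. According to the methods, treatment lasted 8 days. All tumors came from the same line and grew outside the organs in which neuroblastoma arises, and each tumor is a mixture of N2A cells with host stroma and leukocytes.

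Matched reads totalled 23392451 to 43480279 in the SR59230A tumors and 28498509 to 43851943 in the vehicle tumors. Neuroblastoma markers were expressed in every tumor, with a summed TPM over 10 genes of 419 to 713 in the SR59230A tumors and 441 to 937 in the vehicle tumors. Of these 10 genes, 9 had a negative log2 fold change (median -0.34), 3 of them at an unadjusted edgeR p under 0.05. Over all genes tested, 2.42% were lower at that p. Mitochondrially encoded genes held 4.38 to 17.8% of TPM in the SR59230A tumors (highest in tumor 3) and 3.76 to 10.9% in the vehicle tumors (highest in tumor 3). Skeletal muscle markers summed to 925 and 84.9 TPM in SR59230A tumors 1 and 2, and to 18.1 and 20.01 TPM in SR59230A tumors 3 and 4, against 10.2 to 37.4 TPM in the vehicle tumors. All 5 muscle genes tested had a positive log2 fold change and an unadjusted edgeR p under 0.05, against 2.22% of all genes tested. EdgeR called none a DEG and DESeq2 called 2, against 0.112% of all genes with DESeq2. In CPM, 2 were higher in every SR59230A tumor than in any vehicle tumor, against 1.32% of all genes. Results that rest on SR59230A tumors 1 and 2 are given with and without them.

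The cysteines that give the families their names are shown first, because they place a ligand in its class. For 9 of the 10, a line holds the coding bases around the first cysteines of the mature ligand, read 5′ to 3′ on the coding strand from the GENCODE M21 transcript sequences (GRCm38), with the cysteine codons in capitals. All 9 stretches lie in exon 2 of their gene.
Ccl2: ccactcaccTGCTGCtactcattc
Ccl4: cccacttccTGCTGTttctcttac
Ccl5: accactcccTGCTGCtttgcctac
Ccl7: gcatccacaTGCTGCtatgtcaag
Ccl8: ccagtcaccTGCTGCtttcatgta
Cxcl1: gagctgcgcTGTcagTGCctgcagacc
Cxcl12: agctaccgaTGCcccTGCcggttcttc
Cxcl16: gctggaagtTGTtctTGTgatcgtacc
Cx3cl1: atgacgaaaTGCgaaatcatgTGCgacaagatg
In the 5 CC ligands shown the cysteine codons are adjacent, in the 3 CXC ligands 1 codon stands between them, and in Cx3cl1 there are 3. The stretches lie at chr11:82036497-82036520 (Ccl2, plus strand), chr11:83663473-83663496 (Ccl4, plus strand), chr11:83529233-83529256 (Ccl5, minus strand), chr11:82046529-82046552 (Ccl7, plus strand), chr11:82116047-82116070 (Ccl8, plus strand), chr5:90891487-90891513 (Cxcl1, plus strand), chr6:117171499-117171525 (Cxcl12, plus strand), chr11:70459118-70459144 (Cxcl16, minus strand) and chr8:94778042-94778074 (Cx3cl1, plus strand). Ccl2, Ccl7 and Ccl8 lie in 1 cluster on the plus strand of chromosome 11, from 82035571 (start of Ccl2) to 82116799 (end of Ccl8), with Ccl11 and Ccl12 between Ccl7 and Ccl8. Related ligands could share reads, but the reads were 76 bases long. The longest run of bases that any of the 10 had in common with the annotated transcripts of 39 other ligands was 25 (Cxcl1 with Ccl9). Ccl2 and Ccl7 shared at most 23. Transcripts of other genes were not searched. Some estimated counts were not whole numbers, such as 237.7 for Ccl7 in SR59230A tumor 1, and sharing of reads with other genes was not tested.

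Ccl8 was by far the most abundant of the 10 per transcript length. In mouse, Ccl8 is a ligand of Ccr8, and in human it attracts monocytes through several CC receptors. Its TPM was 273, 285, 409 and 143 in SR59230A tumors 1 to 4 and 96.7, 252, 181 and 205 in vehicle tumors 0 to 3. It was the highest of the 10 in every tumor, and its mean over the 8 tumors, 231 TPM, lay at percentile 97.2 of the 14364 protein-coding genes tested. Ccl8 made up 75.3 to 90.9% of the summed TPM of the 10 ligands in the SR59230A tumors and 77.1 to 81.4% in the vehicle tumors. Against all chemokine ligands quantified, its share was 38.6 to 62.2% in the SR59230A tumors and 40.4 to 50.6% in the vehicle tumors.

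Ccl2 and Ccl7, which attract monocytes through Ccr2, came next at nearly the same level. Ccl2 was at 13.3 to 18.1 TPM in the SR59230A tumors and 11.6 to 22.7 TPM in the vehicle tumors, and Ccl7 at 15.6 to 17.9 TPM in the SR59230A tumors and 8.40 to 19.4 TPM in the vehicle tumors. Their means of 17.1 TPM (Ccl2) and 16.0 TPM (Ccl7) fall near the middle of the protein-coding genes tested, at percentiles 56.5 and 54.8. Cxcl1, a neutrophil attractant that acts through Cxcr2, followed with 3.49 to 11.5 TPM in the SR59230A tumors and 4.26 to 12.0 TPM in the vehicle tumors. Cxcl16, the membrane-bound ligand of Cxcr6, had 1.02 to 3.82 TPM in the SR59230A tumors and 1.64 to 3.02 TPM in the vehicle tumors. Cxcl12, the stromal ligand of Cxcr4, had 1.07 to 2.79 TPM in the SR59230A tumors and 0.779 to 1.85 TPM in the vehicle tumors.

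The other 4 ligands were near the detection limit in nearly every tumor. Cx3cl1, the membrane-bound ligand of Cx3cr1, had 7 to 91 reads in the SR59230A tumors and 5 to 18 in the vehicle tumors, and only SR59230A tumor 1 exceeded 18. Ccl3, Ccl4 and Ccl5, which are made by activated macrophages and lymphocytes, gave 27, 36 and 21 reads over all 8 tumors together. The reads of Ccl3 were 1, 4, 3 and 3 in SR59230A tumors 1 to 4 and 5, 6, 3 and 2 in vehicle tumors 0 to 3. Those of Ccl4 were 4, 6, 3 and 2 in the SR59230A tumors and 2, 10, 2 and 7 in the vehicle tumors. Those of Ccl5 were 0, 5, 1 and 0 in the SR59230A tumors and 2, 9, 1 and 3 in the vehicle tumors. A count of 0 allows up to 3 reads in a library, which corresponded to 0.0615 to 0.146 CPM (reads per gene scaled to the library's total) over the 8 tumors, for counting error only. Of 9 T and NK cell markers, 3 passed the filter (Trac, Cd4 and Cd8a), all with a negative log2 fold change (median -0.64) and none a DEG. Trac, with 10 to 26 reads in the SR59230A tumors and 18 to 47 in the vehicle tumors, did not overlap in CPM. It was lower in every SR59230A tumor, as were 1.29% of all genes tested. In TPM it overlapped, at 1.02 to 1.81 in the SR59230A tumors and 1.75 to 3.56 in the vehicle tumors. The list summed to 1.56 to 2.79 TPM in the SR59230A tumors and 2.56 to 5.25 TPM in the vehicle tumors, with Cd3e, Cd3g, Klrb1c, Ncr1 and Gzmb at 0 reads in some tumors. The part of lymphocyte content in the reads of Ccl3, Ccl4 and Ccl5 was not tested.

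**Figure D1:**
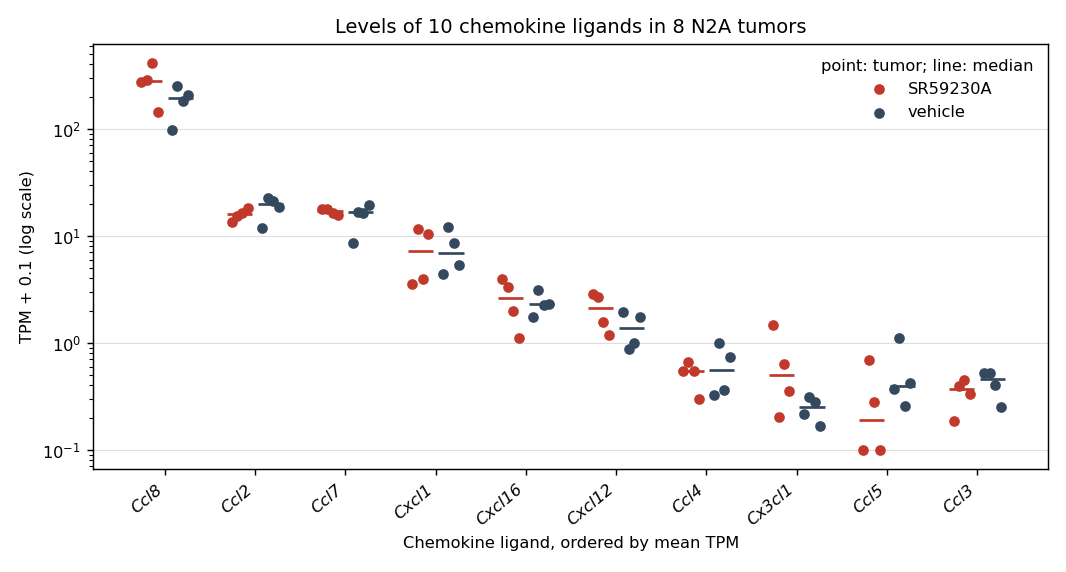
TPM + 0.1 on a log scale for the 10 ligands in the 4 SR59230A tumors and the 4 vehicle tumors, ordered by mean TPM, with 1 point per tumor and a line at the group median. Ccl8 stands above the rest in every tumor, Ccl2 and Ccl7 lie together, and Ccl4, Cx3cl1, Ccl5 and Ccl3 lie at the bottom with overlapping points.

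The order of levels was tested within tumors, by an exact two-sided sign-flip permutation test of the difference in log2(TPM + 0.1) between neighbours, whose smallest possible p over 8 tumors is 0.00781. The neighbours and their direction were taken from mean TPM over the same 8 tumors. The p-values therefore describe how steady each difference was between tumors and are not separate support for the order. Of 9 pairs of neighbours, 4 differed after Benjamini-Hochberg adjustment. Ccl8 exceeded Ccl2 in 8 of 8 tumors by 3.66 ± 0.65 on the log2 scale (SD; exact permutation p = 0.00781, adjusted 0.0352), and Ccl7 exceeded Cxcl1 in 8 of 8 by 1.23 ± 0.73 (exact permutation p = 0.00781, adjusted 0.0352). Cxcl1 exceeded Cxcl16 in 7 of 8 tumors by 1.54 ± 0.96, and Cxcl12 exceeded Ccl4 in 7 of 8 by 1.62 ± 0.87 (exact permutation p = 0.0156 each, adjusted 0.0352). Ccl2 and Ccl7 did not differ beyond their spread (5 of 8 tumors, exact permutation p = 0.43), nor did Cxcl16 and Cxcl12 after adjustment (6 of 8, adjusted exact permutation p = 0.0563), nor the neighbours among Ccl4, Cx3cl1, Ccl5 and Ccl3 (exact permutation p = 0.18 to 0.805).

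Whether the ligands differed between SR59230A and vehicle tumors was read from a fit across all genes, with edgeR's quasi-likelihood test. A gene was called differentially expressed (DEG) where its p, adjusted by Benjamini-Hochberg over all genes, was under 0.05 and its log2 fold change was 0.5 or more in either direction. None of the 7 ligands tested was a DEG, and none had an unadjusted p under 0.05 (lowest 0.103, Cx3cl1). Over all genes, edgeR called 0 DEGs (0%), with 338 genes (2.22%) higher and 368 (2.42%) lower at an unadjusted p under 0.05. With DESeq2 there were 17 DEGs (0.112%), none of them a ligand of the list. All 10 ligands overlapped in CPM between the groups, where 1.32% of the genes tested were higher in all SR59230A tumors than in any vehicle tumor and 1.29% were lower in all of them. Of the 7 ligands, 5 had a positive and 2 a negative log2 fold change with a median of 0.08, while 49.6% of all genes were positive with a median of -0.002. In whole tumors, fewer cells of a type and less RNA per cell cannot be told apart. The labels do not say more of the tumors than their numbers, so p-values measure the spread between these 8 samples.

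Ccl8 had the highest mean in the SR59230A tumors relative to vehicle among the abundant ligands, but within the spread. It measured 54.8, 53.2, 114 and 43.9 CPM in SR59230A tumors 1 to 4, against 26.7, 49.0, 36.2 and 70.9 CPM in vehicle tumors 0 to 3. SR59230A tumor 3 was above all others, and the remaining 3 SR59230A tumors lay within the range of the vehicle tumors. The means were 66.6 ± 32.3 CPM in the SR59230A tumors and 45.7 ± 19.1 CPM in the vehicle tumors (SD, n = 4 each), a log2 fold change of 0.54 (SE 0.36, 95% interval -0.26 to 1.35, edgeR p = 0.164, adjusted p = 0.996; exact permutation p = 0.286, smallest possible 0.0286). Without SR59230A tumor 3, which also had the highest share of mitochondrially encoded TPM, the log2 fold change was 0.14, and without vehicle tumor 3 it was 0.83. The summed TPM of 12 macrophage and monocyte markers was 293, 293, 223 and 156 in SR59230A tumors 1 to 4 and 114, 235, 198 and 180 in vehicle tumors 0 to 3. All 12 passed the filter, 10 with a positive and 2 with a negative log2 fold change (median 0.30), and none was a DEG. Vehicle tumor 0 was lowest in this sum as well as in Ccl8. SR59230A tumor 3, the highest in Ccl8, was below SR59230A tumors 1 and 2 and vehicle tumor 1 in this sum. The markers did not move together. C1qa had 1189, 1478, 439 and 397 reads in SR59230A tumors 1 to 4 and 323, 1061, 676 and 399 in vehicle tumors 0 to 3. Mrc1 had 7733, 9879, 9024 and 9997 reads in the SR59230A tumors and 4227, 9466, 5522 and 11526 in the vehicle tumors. SR59230A tumor 3 had the fewest matched reads, 23392451. The part of macrophage content in the level of Ccl8 was not tested.

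Ccl2 measured 4.86, 5.22, 8.27 and 8.93 CPM in SR59230A tumors 1 to 4 and 5.82, 7.69, 7.43 and 10.5 CPM in vehicle tumors 0 to 3. SR59230A tumors 1 and 2 were below every vehicle tumor and tumors 3 and 4 were among the upper ones, so the groups overlapped. The log2 fold change was -0.21 (SE 0.26, 95% interval -0.80 to 0.38, edgeR adjusted p = 0.996). Ccl7 measured 6.49, 5.99, 8.18 and 8.07 CPM in the SR59230A tumors and 4.12, 5.53, 5.55 and 12.1 CPM in the vehicle tumors. All 4 SR59230A tumors were above 3 of the vehicle tumors and below vehicle tumor 3. Its log2 fold change was 0.08 (SE 0.32, 95% interval -0.64 to 0.79, edgeR adjusted p = 0.996), and leaving out vehicle tumor 3 gave 0.50. In SR59230A tumors 1 and 2, the tumors with skeletal muscle reads, Ccl2 was at its lowest, and without them its log2 fold change was 0.13.

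Cxcl1 varied by several fold among the SR59230A tumors. It measured 1.501, 4.54, 2.34 and 5.98 CPM in SR59230A tumors 1 to 4 and 2.43, 4.65, 3.35 and 3.64 CPM in vehicle tumors 0 to 3. The SR59230A tumors held both the lowest and the highest value, and the means nearly coincided at 3.59 ± 2.04 CPM in the SR59230A tumors and 3.52 ± 0.915 CPM in the vehicle tumors (SD, n = 4 each). The log2 fold change was 0.03 (SE 0.42, 95% interval -0.91 to 0.97, edgeR adjusted p = 0.999). Its sign turned in 8 of 19 alternative settings. Of 7 neutrophil markers, 4 passed the filter, all with a positive log2 fold change (median 1.34) and none a DEG. The largest were S100a9 at 2.59 and S100a8 at 2.32, each with an unadjusted edgeR p under 0.05 and an adjusted p of 0.996. Over all genes tested, 2.22% were higher at that unadjusted p. S100a9 and S100a8 peaked in SR59230A tumor 3, with 233 reads of S100a9 and 160 of S100a8, where Cxcl1 had 48. In SR59230A tumors 1, 2 and 4, S100a9 had 11, 39 and 33 reads and S100a8 had 35, 25 and 42. The vehicle tumors had 13 to 33 reads of S100a9 and 8 to 23 of S100a8. Over the list, the summed TPM was 32.2 to 93.6 in the SR59230A tumors and 23.4 to 46.2 in the vehicle tumors, with Ly6g, Retnlg and Ngp at 0 in some tumors. Cxcr2 weighed most in the sum of the vehicle tumors, with a mean of 27.5 TPM there. Mmp8 averaged 0.356 TPM over all tumors, and Ly6g had 0 to 4 reads in the SR59230A tumors and 0 to 3 in the vehicle tumors. The sum is thus mainly not one of these low markers. The part of the neutrophil markers in the spread of Cxcl1 was not tested.

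**Figure D2:**
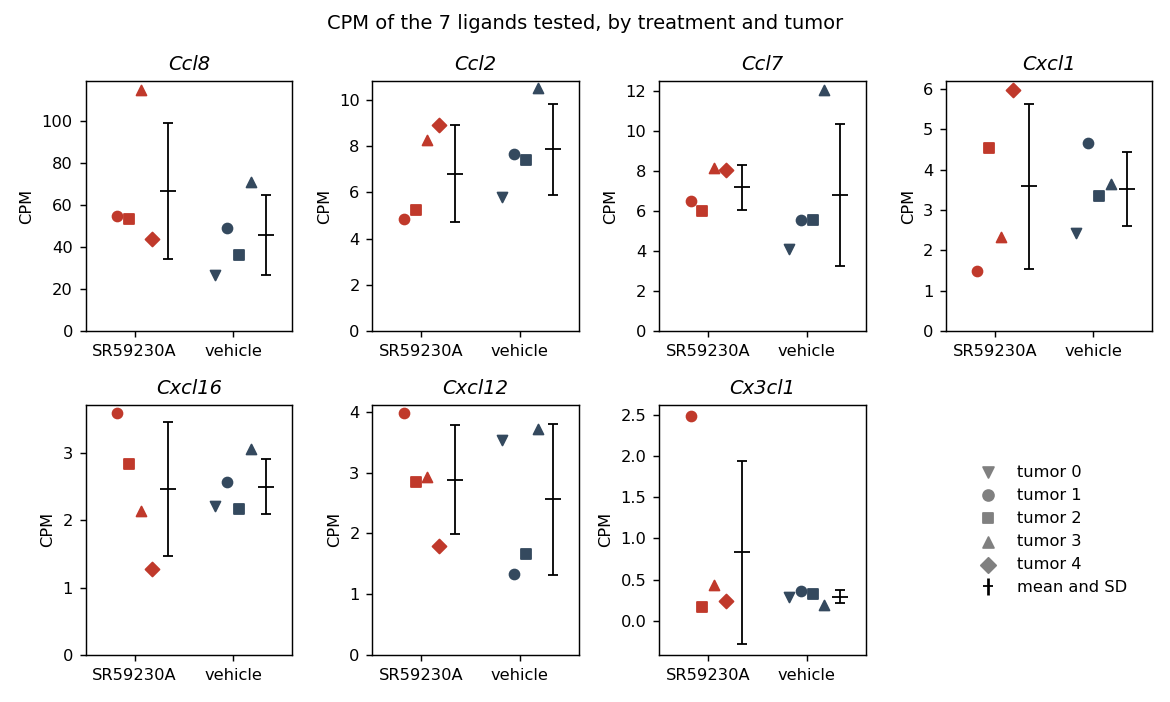
CPM of the 7 ligands tested, with the SR59230A tumors left of the vehicle tumors, 1 symbol per tumor number and a bar for the mean and SD of 4 tumors. The groups overlap in every panel, with Ccl8 in SR59230A tumor 3 (114 CPM) and Cx3cl1 in SR59230A tumor 1 (2.48 CPM) far above the rest of their group.

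Cxcl12 and Cxcl16 were both highest in SR59230A tumor 1. Cxcl12 measured 3.98, 2.84, 2.92 and 1.79 CPM in SR59230A tumors 1 to 4 and 3.54, 1.33, 1.66 and 3.72 CPM in vehicle tumors 0 to 3. The vehicle tumors fell into a higher and a lower pair that enclosed 3 of the SR59230A tumors. The log2 fold change was 0.18 (SE 0.40, 95% interval -0.71 to 1.07, edgeR adjusted p = 0.996). It was 1.195 when only tumors 1 and 2 of each group were compared and -0.64 among the remaining tumors, neither a DEG. Cxcl16 measured 3.60, 2.84, 2.14 and 1.27 CPM in the SR59230A tumors and 2.21, 2.56, 2.17 and 3.06 CPM in the vehicle tumors. Again the SR59230A tumors held both extremes, and the log2 fold change was -0.02 (SE 0.33, 95% interval -0.75 to 0.72, edgeR adjusted p = 0.999). Fibroblast markers, 8 genes that all passed the filter, summed to 428, 376, 245 and 213 TPM in SR59230A tumors 1 to 4 and 273, 231, 198 and 197 TPM in vehicle tumors 0 to 3. Of them, 7 had a positive and 1 a negative log2 fold change (median 0.49), and none was a DEG. At an unadjusted edgeR p under 0.05, 1 was higher, against 2.22% of all genes tested. Without SR59230A tumors 1 and 2, which also carried the muscle reads, the log2 fold changes were -0.12 (Cxcl12) and -0.56 (Cxcl16). The part of fibroblast content was not tested.

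Cx3cl1 had the largest fitted difference of the 7, and it rested on 1 tumor. It measured 2.48, 0.1698, 0.438 and 0.240 CPM in SR59230A tumors 1 to 4 and 0.295, 0.369, 0.332 and 0.191 CPM in vehicle tumors 0 to 3. Apart from SR59230A tumor 1, with 91 reads, every tumor had 5 to 18 reads. The log2 fold change was 1.47 (SE 0.82, 95% interval -0.36 to 3.31, edgeR p = 0.103, adjusted p = 0.996; exact permutation p = 0.657), and -0.14 without that tumor. SR59230A tumor 1 was also the tumor with 925 TPM of skeletal muscle markers, and without SR59230A tumors 1 and 2 the log2 fold change was 0.15. For Ccl3, Ccl4 and Ccl5, which did not pass the filter, the 4 SR59230A tumors together had 11, 15 and 6 reads and the 4 vehicle tumors 16, 21 and 15, and a difference was not detectable at this depth.

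**Figure D3:**
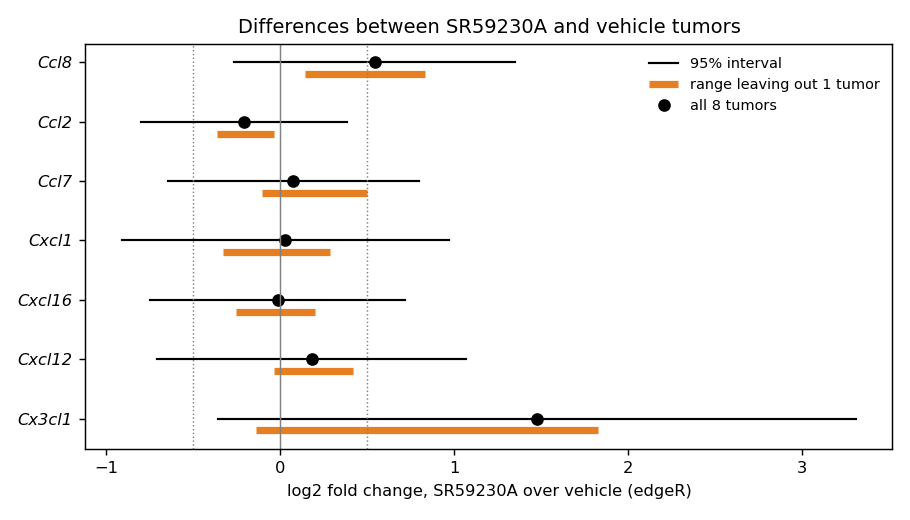
Log2 fold change of SR59230A over vehicle for the 7 ligands tested, with the 95% interval over all 8 tumors in black and the range when 1 tumor was left out in orange; dotted lines mark a log2 fold change of 0.5 in either direction. All 7 intervals include 0, and Ccl2 and Ccl8 are the ligands whose orange ranges stay on one side of it.

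Most of the ligands were read from a single transcript. Ccl3, Ccl4, Ccl7 and Ccl8 have 1 quantified transcript each, Ccl2-201 held 97.5 to 100% of the TPM of Ccl2 in the SR59230A tumors and 98.8 to 100% in the vehicle tumors, and Cxcl1-201 held 95.5 to 98.0% of that of Cxcl1 in the SR59230A tumors and 96.4 to 98.3% in the vehicle tumors. Cxcl12 was divided between 2 main protein-coding transcripts. Cxcl12-202 held a median of 83.3% in the SR59230A tumors (75.4 to 89.3%) and 69.95% in the vehicle tumors (57.0 to 79.6%), and Cxcl12-201 a median of 15.7% in the SR59230A tumors (10.7 to 22.0%) and 29.2% in the vehicle tumors (16.5 to 43.0%). The groups overlapped in both, and vehicle tumors 1 and 2 had the highest shares of Cxcl12-201. The largest share of the TPM of Cxcl16 was assigned to Cxcl16-202, annotated as a target of nonsense-mediated decay, with a median of 59.9% in the SR59230A tumors (53.0 to 82.5%) and 61.2% in the vehicle tumors (53.3 to 79.4%). The protein-coding Cxcl16-201 held 17.6 to 29.6% of the TPM in the SR59230A tumors and 20.6 to 44.6% in the vehicle tumors. Ccl5-201 held 64.1% of the TPM of Ccl5 in vehicle tumor 3 and 100% in the other tumors with reads. Cx3cl1-201 held 29.5% of the TPM of Cx3cl1 in SR59230A tumor 3, 32.3% in SR59230A tumor 4 and 100% in every other tumor. The rest lay on 1.24 reads of Cx3cl1-205 in SR59230A tumor 3 and on 1 read of Cx3cl1-204 in SR59230A tumor 4. The TPM of Cx3cl1 in these tumors thus leaned on very few reads. These shares are Salmon's assignment of few reads among overlapping transcripts, and no test was made of them.

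**Figure D4:**
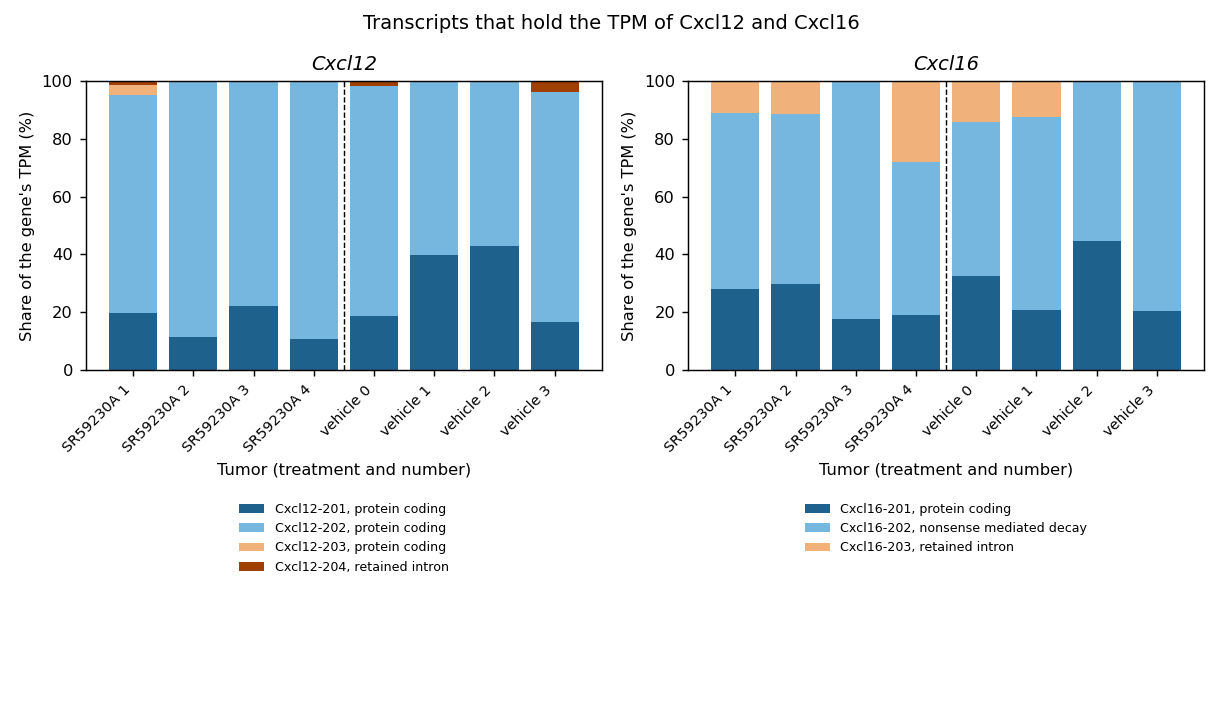
Share of the TPM of Cxcl12 and of Cxcl16 held by each quantified transcript in the 4 SR59230A tumors (left of the dashed line) and the 4 vehicle tumors (right of it), in percent. Cxcl12-202 is the larger part of Cxcl12 in every tumor and Cxcl16-202 of Cxcl16 in every tumor.

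The receptors of these ligands were expressed at different levels and none was a DEG. Of 23 receptors and scavengers listed, 15 passed the filter, 6 with a positive and 9 with a negative log2 fold change (median -0.17), and none had an unadjusted p under 0.05. Cxcr2, the receptor of Cxcl1, was the highest with 23.8 to 44.6 TPM in the SR59230A tumors and 20.4 to 41.4 TPM in the vehicle tumors. Ccr1, a receptor of Ccl3, Ccl5 and Ccl7, had 5.22 to 7.63 TPM in the SR59230A tumors and 3.42 to 6.99 TPM in the vehicle tumors. Ccr2, which binds Ccl2 and Ccl7, averaged 2.80 TPM in the SR59230A tumors and 3.74 TPM in the vehicle tumors, with a log2 fold change of -0.65 (SE 0.36, edgeR adjusted p = 0.996). Ccr8, the receptor of mouse Ccl8, was looked at after its values were seen and had 0 to 1 reads in the SR59230A tumors and 0 to 2 in the vehicle tumors.

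Cxcr4, through which Cxcl12 signals, averaged 4.16 TPM in the SR59230A tumors and 4.77 TPM in the vehicle tumors, and Ackr3, which takes up Cxcl12, 1.47 TPM in the SR59230A tumors and 0.995 TPM in the vehicle tumors. Cx3cr1, the receptor of Cx3cl1, averaged 0.745 TPM in the SR59230A tumors and 1.07 TPM in the vehicle tumors. Cxcr6, the receptor of Cxcl16, had 0 to 3 reads in the SR59230A tumors and 0 to 5 in the vehicle tumors. The scavengers of inflammatory ligands were low as well, with Ackr1 at 1 to 8 reads in the SR59230A tumors and 0 to 2 in the vehicle tumors, and Ackr2 at 5 to 26 reads in the SR59230A tumors and 6 to 21 in the vehicle tumors. The proteases were all expressed: Adam10, which releases Cxcl16 and Cx3cl1, averaged 43.4 TPM in the SR59230A tumors and 39.5 TPM in the vehicle tumors. Adam17, which also releases Cx3cl1, averaged 21.01 TPM in the SR59230A tumors and 19.6 TPM in the vehicle tumors, and Dpp4, which trims Cxcl12, 5.396 TPM in the SR59230A tumors and 5.75 TPM in the vehicle tumors. The log2 fold changes were 0.15 (Adam10), -0.04 (Adam17) and -0.12 (Dpp4), and none was a DEG.

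**Figure D5:**
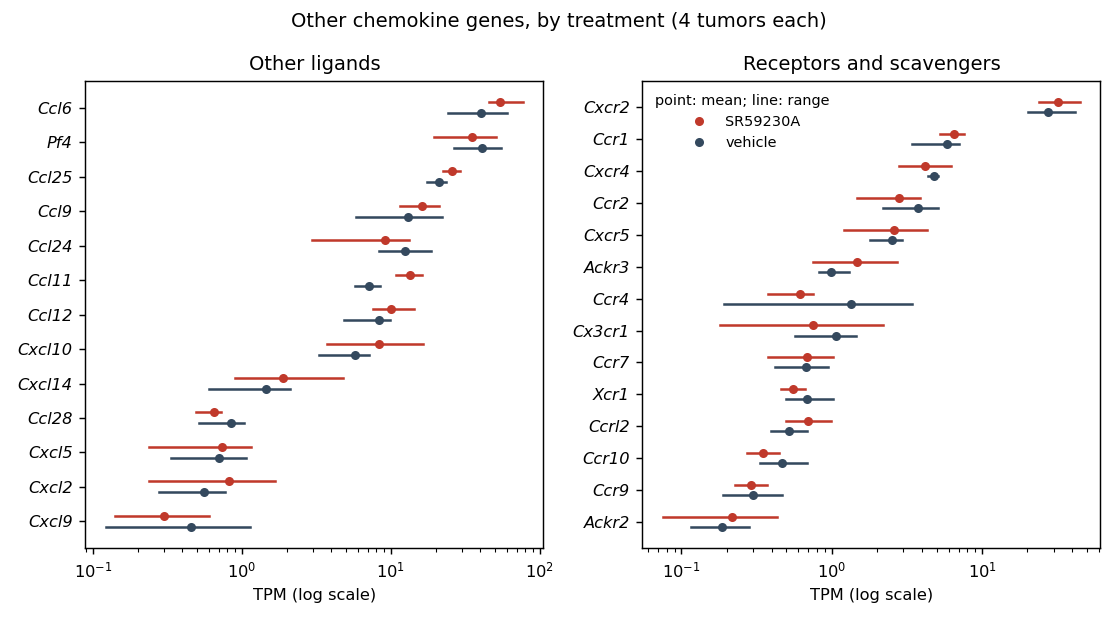
TPM on a log scale of the other chemokine ligands that passed the filter and of 14 receptors and scavengers, with the mean (point) and range (line) over 4 SR59230A tumors, drawn above 4 vehicle tumors. Ccl11 is the ligand whose ranges do not meet, and Cxcr2 is the highest of the receptors drawn.

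Of 31 other ligands listed, 29 had quantified transcripts and 13 passed the filter, 8 with a positive and 5 with a negative log2 fold change (median 0.23), and none was a DEG in edgeR or DESeq2. The most abundant was Ccl6, a mouse ligand of Ccr1, with 45.6 to 76.8 TPM in the SR59230A tumors and 24.2 to 60.1 TPM in the vehicle tumors. Pf4, the platelet factor, averaged 35.2 TPM in the SR59230A tumors and 41.2 TPM in the vehicle tumors, and Ccl25, the ligand of Ccr9, 25.9 TPM in the SR59230A tumors and 21.1 TPM in the vehicle tumors. Ccl9, another ligand of Ccr1, averaged 16.1 TPM in the SR59230A tumors and 13.0 TPM in the vehicle tumors, and Ccl24, an eosinophil attractant, 9.10 TPM in the SR59230A tumors and 12.4 TPM in the vehicle tumors. The highest value of Ccl6 in any tumor, 76.8 TPM, was under the lowest of Ccl8, 96.7 TPM.

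Ccl11, the eosinophil attractant eotaxin, was the ligand whose groups did not overlap. It had 190, 337, 190 and 269 reads in SR59230A tumors 1 to 4 and 107, 178, 130 and 131 reads in vehicle tumors 0 to 3, or 10.8 to 16.2 TPM in the SR59230A tumors and 5.79 to 8.53 TPM in the vehicle tumors. Every SR59230A tumor was above every vehicle tumor in CPM, a pattern shared by 1.32% of all genes tested. The log2 fold change was 0.90 (SE 0.23), and neither edgeR (adjusted p = 0.996) nor DESeq2 (adjusted p = 0.121) called it a DEG. Of 10 inflammatory signal genes, 8 passed the filter with a median log2 fold change of 0.07, and none was a DEG. Nfkbia, an inhibitor of NF-κB, had 60.3 to 120 TPM in the SR59230A tumors and 55.4 to 118 TPM in the vehicle tumors, and Il6, an inflammatory cytokine, 9.44 to 16.1 TPM in the SR59230A tumors and 6.43 to 13.8 TPM in the vehicle tumors. Nfkbiz, Icam1 and Tnfaip3, further NF-κB targets, had log2 fold changes of -0.11 (Nfkbiz), -0.05 (Icam1) and 0.09 (Tnfaip3).

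The genes most like a ligand across the 8 tumors were listed for the 4 ligands with a mean of at least 100 reads, among 14363 protein-coding genes, as a description of tumors that share treatment, depth and cell makeup. Ccl7 was most like Fcgr3 (Pearson r = 0.98 in log2 CPM, n = 8), an Fc receptor gene, then H2-Q2 (0.98) and Id2 (0.96). Ccl8 was most like Unkl (0.99), Galnt3 (0.97) and Wfdc17 (0.97), Ccl2 like Sox5 (0.95), Gm1140 (0.94) and Tnfsf14 (0.94), and Cxcl1 like S100a10 (0.96), Lgals7 (0.95) and Snx9 (0.93). Genes with an r over 0.9 numbered 33 for Ccl7, 59 for Ccl8, 19 for Ccl2 and 7 for Cxcl1, so the nearest were picked from many. No ligand of the list was among the 3 nearest of another. Among the 21 pairs of the 7 ligands, none was correlated after adjustment (lowest Benjamini-Hochberg adjusted p = 0.346 for Pearson's r and 0.587 for Spearman's rho, exact permutation).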

How the data were processed

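The authors quantified the reads with Salmon. Their deposited files hold, per transcript, estimated counts, TPM and effective lengths, and a deposited table of DESeq2 normalized counts (a scaled signal) lists 6 of the 10 ligands. The reference was GRCm38 in the methods but GRCm39 in the submitters' notes. GENCODE M21 (GRCm38) held 115685 of the 116747 transcript identifiers (99.1%). Estimated counts and TPM were summed to genes and the counts rounded. The main test was edgeR 4.0.16 (R 4.3.3) with TMM and filterByExpr defaults, by the quasi-likelihood test, with p adjusted by Benjamini-Hochberg. CPM use TMM-scaled totals. Alternatives were DESeq2 1.42.0, limma 3.58.1 on log2(TPM + 0.1) and log2(TPM + 1), other size factors, no filter, length offsets, a replicate block and fewer tumors. The scripts were tested on simulated data. Exact permutation tests used 70 assignments of the 8 tumors. The ligands, lists and markers were chosen with earlier results of these data known. Named genes were the 10 ligands, receptors, scavengers and proteases that act on them, the 5 most abundant other ligands and inflammatory signal genes, any that did not overlap between groups, and the 3 genes most correlated with each ligand. Ccr8, S100a8, S100a9 and the T and NK cell markers were named after their values were seen. Some items are not reported here.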

Additional observations from a re-analysis of the deposited data

Results flagged for a closer look

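Ccl8 in SR59230A tumor 3, at 114 CPM, lay far from the other SR59230A tumors, with a gap to the nearest of 0.845 of the group's range. Cx3cl1 in SR59230A tumor 1, at 2.48 CPM, lay far from the other SR59230A tumors, with a gap of 0.884 of the range. Of 14 groups examined in CPM, these 2 passed Dixon's limit for 4 samples, where chance passes about 1 in 20. In log2 CPM the gaps were 0.768 (Ccl8) and 0.694 (Cx3cl1) of the range, and neither passed. The CPM scale, on which the values are printed, was taken for this check after the log2 scale had been examined.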

How the results depend on the processing

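No ligand was a DEG under any alternative, and Ccl8 kept a positive log2 fold change in all 20, from 0.14 to 0.83. The count of DEGs over all genes was 0 with edgeR, 17 with DESeq2, 5 with only the tumors not numbered 1 or 2, and 0 to 1 leaving out 1 tumor (1 without SR59230A tumor 4). Of the ligands, 3 to 6 were positive and the median log2 fold change was -0.074 to 0.42 leaving out 1 tumor (highest without vehicle tumor 3); with only tumors 1 and 2 the median was 0.34, and with only the tumors not numbered 1 or 2 there were 3 positive of 6 tested. Leaving out 1 tumor gave -0.11 to 0.50 for Ccl7, -0.33 to 0.29 for Cxcl1, -0.0372 to 0.42 for Cxcl12, -0.26 to 0.20 for Cxcl16 and -0.14 to 1.82 for Cx3cl1. Signs turned for Cxcl16 without a filter (0.00202), with length offsets (0.00963) and with limma (0.00496 and 0.0328), and for Cxcl1 with limma (-0.12 and -0.0941). With only tumors 1 and 2, Cxcl1 was at -0.40 and Cxcl16 at 0.44; with only the other tumors Ccl2 was at 0.0665, Ccl7 at -0.000796 and Cxcl12 at -0.64. SR59230A tumor 4 and vehicle tumors 0 and 3 were listed beforehand as libraries with satellite-like reads, which were not measured here. Without them Cxcl1 was at -0.50 and Cxcl16 at 0.29. Without the tumors with muscle reads Ccl2 was at 0.13 and Cxcl12 at -0.12. The cause of these turns was not tested.

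Same-numbered tumors correlated in their deviations at 0.0104, 0.626 and 0.534 (numbers 1 to 3), and not every SR59230A tumor correlated best with its own number, so the numbers were not taken as pairs. With the replicate block there were 2 DEGs, and Ccl7 was at -0.068, Cxcl1 at -0.59 and Cxcl16 at 0.14. The order by mean TPM held in 8 or 9 of 9 neighbouring pairs leaving out 1 tumor, in 6 within the SR59230A tumors and in 8 within the vehicle tumors. Depth limited Ccl3, Ccl4, Ccl5 and, outside 1 tumor, Cx3cl1.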
